A study of Mus musculus with 12 samples.

Results

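The comparison set heavy polysomes against light polysomes in the livers of chow-fed wild-type mice, within each animal. Its members are the 6 libraries of 3 mice, a heavy and a light pool per liver, out of 12 libraries in the series. The mice were male C57BL/6 animals with both eIF4E alleles wild type, had free access to chow, and served as the chow arm of a diet comparison that the protocol puts at 24 h, while the time label of every library reads 0 h. Their age is not given in the sources used here. They are called chow 1, chow 2 and chow 3. The titles describe chow 1 and chow 2 with the word chow and chow 3 with the word fed, and all 3 carry the same treatment label. The remaining 6 libraries came from 2 wild-type mice on a ketogenic diet and 1 chow-fed mouse with the S209A change on both eIF4E alleles. Genes with at least 10 counts in at least 3 of the 6 libraries were tested, which left 8432 of 27179 identifiers.

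An mRNA that is being translated carries ribosomes, and a sucrose gradient spreads mRNAs by how much they sediment. An mRNA with many ribosomes travels far and is counted as heavy polysome RNA, and one with few ribosomes stays in lighter fractions. How many ribosomes an mRNA holds depends on how often translation starts on it, on how fast ribosomes move, and on how long its coding sequence is. In liver much of the translated mRNA encodes secreted plasma proteins made on the rough endoplasmic reticulum, and metabolic enzymes. RNAs that are not translated, such as nuclear noncoding RNAs and the rRNAs of mitochondria, can still sediment in these fractions as other particles.

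Per the labels' protocols, fractions 2 to 7 and 8 to 13 were pooled. Which pool is the heavy one was taken from the label of each library, since the protocol does not say. Library totals ran from 3924075 to 10553620 counts, and nuclear protein-coding genes held between 582798 and 1777315 of them. These genes took 15.9%, 22.2% and 29.7% of the heavy libraries of chow 1, 2 and 3, against 6.53%, 8.16% and 39.3% of the light libraries. Genes of the mitochondrial genome took 16.8%, 13.1% and 13.8% of the heavy libraries, against 58.3%, 52.7% and 13.6% of the light ones. The light library of chow 3 thus stood apart from the other 2 light libraries. Per the file headers, chow 1 and chow 2 were aligned with Bowtie2 and chow 3 with HISAT2. Pseudogene counts, as a percent of protein-coding counts, lay between 1.70 and 2.76 in chow 1 and chow 2 and between 0.316 and 0.323 in chow 3. Aligner, title wording and these shares all separate chow 3 from the others, so they cannot be told apart from one another, and calls are given with and without chow 3.

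Levels are CPM, counts scaled to a common size relative to the TMM-scaled library. The per-animal value is the log2 ratio of heavy over light within one liver. The fitted log2 value is edgeR's estimate over the 3 livers with the animal as a block, followed by its standard error. In bulk tissue, fewer cells of a type and less RNA per cell cannot be told apart. All values are relative to the other RNA of the same library, and 0 spike-in identifiers were in the tables, so a total amount per pool was not measured.

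In all 3 livers the mRNA of Saa1, an acute phase apolipoprotein that the liver secretes in inflammation, was richer in the heavy pool. Saa1 (chr7:46740497-46743181, GRCm38.p6) was counted 562, 42 and 239 times in the heavy pools of chow 1, 2 and 3, against 119, 6 and 26 in their light pools. In CPM these were 181, 7.66 and 22 in heavy and 26.7, 1.09 and 2.56 in light. The animals differed more than the pools did, so the heavy and light values overlapped across livers, while each liver had the heavy value above its own light value. The per-animal log2 ratios were 2.75, 2.51 and 2.96. The fitted value was 2.89 ± 0.43 (7.40-fold, n = 3 animals, edgeR adjusted p = 0.00385). Without the animal as a block the Saa1 call was lost (edgeR adjusted p = 0.99), and without chow 2 as well (edgeR adjusted p = 0.998), with log2 values of 2.81 and 2.96. Saa2 has a sequence close to that of Saa1, so reads of this pair may have been divided between them. How reads with several matches were treated is not given, so the Saa1 counts may not be those of Saa1 alone.

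Aldh1b1, a mitochondrial aldehyde dehydrogenase, also rose in the heavy pool. Aldh1b1 (chr4:45799022-45804608) had 264, 211 and 180 counts in heavy, against 83, 58 and 28 in light. The per-animal log2 ratios were 2.17, 1.84 and 2.46, and the fitted value was 2.20 ± 0.41 (4.60-fold, n = 3 animals, edgeR adjusted p = 0.0343). Its adjusted p was 0.196 without chow 1 and 0.998 without chow 2 in edgeR. The only other gene called was Gm13498, which RefSeq lists as a transcribed pseudogene and which is named here after its values were seen. Gm13498 had 150, 519 and 7 counts in heavy, against 28, 102 and 1 in light, and its fitted value was 2.62 ± 0.47 (edgeR adjusted p = 0.0328). Reads of a pseudogene and of its parent gene may not be separable, and its counts in chow 3 were far below those in the other livers.

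These 3 genes, or 0.0356% of 8432, were all that passed, each higher in heavy, and 0 passed in the lower direction (edgeR's quasi-likelihood test with Benjamini-Hochberg adjustment, threshold 0.05). At an unadjusted p under 0.05 there were 344 genes higher (4.08%) and 242 lower (2.87%) in heavy, 586 in all (6.95%). DESeq2 called 60 genes (54 higher and 6 lower) and limma-voom 56 (46 higher and 10 lower). A positive fitted value was found for 3920 genes (46.5%). One sign in all 3 livers was seen for 1173 genes on the higher side (13.9%) and 1359 on the lower side (16.1%). The 3 heavy values lay entirely above the 3 light values for 367 genes (4.35%) and entirely below them for 513 (6.08%). A difference of at least 2-fold in each of the 3 livers was seen for 42 genes upward (0.498%) and 60 downward (0.712%).

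**Figure D1:**
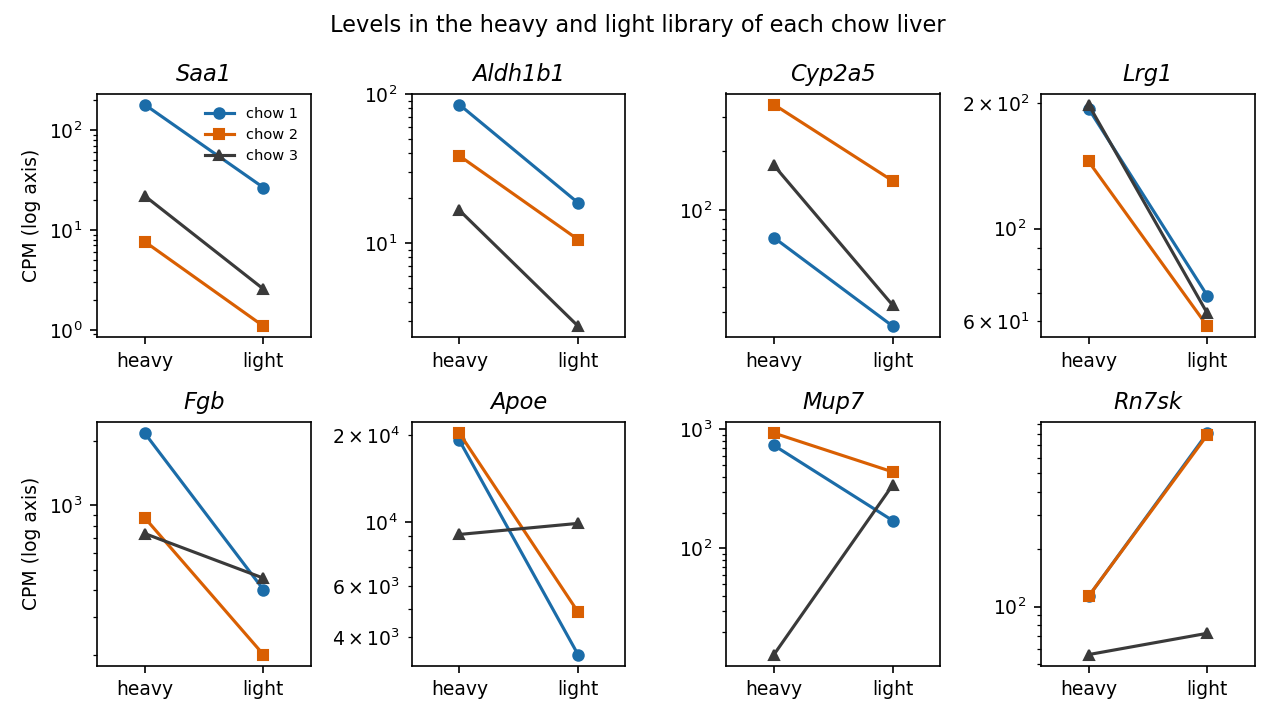
Level in CPM (log axis) of 8 genes in the heavy and light library of each chow liver, 1 line per liver. Saa1, Aldh1b1, Cyp2a5, Lrg1 and Fgb were higher in heavy in all 3 livers, Apoe and Mup7 were higher in chow 1 and chow 2 and lower in chow 3, and Rn7sk was lower in heavy, with the smallest difference in chow 3.

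Of the 6 genes ranked next on the higher side, none passed over 3 livers, 5 passed without chow 3, and they are described by their values. Lrg1, a secreted glycoprotein of the acute phase, had 603, 795 and 2156 counts in heavy, against 308, 321 and 635 in light. Its CPM values in heavy lay above all those in light, with per-animal log2 ratios of 1.49, 1.31 and 1.66 (edgeR adjusted p = 0.499). Serpina3n, an acute phase inhibitor of serine proteases, had 254, 899 and 1379 counts in heavy, against 162, 351 and 382 in light. Its ratios were 1.16, 1.36 and 1.74, again with no overlap between pools (edgeR adjusted p = 0.516). For both genes the 3 livers gave ratios of similar size. Fitted without chow 3, both passed, Lrg1 at 1.39 ± 0.35 and Serpina3n at 1.26 ± 0.36 (edgeR adjusted p of 0.00449 and 0.0147).

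Cyp2a5, the coumarin 7-hydroxylase of the pericentral liver lobule, had 224, 1908 and 1840 counts in heavy, against 113, 777 and 329 in light. Its ratios were 1.5, 1.30 and 2.37 (edgeR adjusted p = 0.386), the highest in chow 3. The neighbouring Cyp2a4, a steroid 15α-hydroxylase with a sequence close to that of Cyp2a5, had 7.08, 12.2 and 12.4 CPM in heavy, against 0.224, 7.45 and 0.197 CPM in light, where it had only 1, 41 and 2 counts (edgeR adjusted p = 0.421). Reads of this pair may have been divided between them. The histone gene H2ac18 had 193, 325 and 8 counts in heavy, against 79, 54 and 2 in light (log2 2.15 ± 0.46, edgeR adjusted p = 0.187). Rpl37rt, a retrotransposed copy of a ribosomal protein gene, had 167, 508 and 68 counts in heavy, against 94, 86 and 32 in light (log2 1.66 ± 0.43, edgeR adjusted p = 0.433). Both have near-identical copies elsewhere, so their counts are uncertain. Without chow 3, Cyp2a5, H2ac18 and Rpl37rt passed (edgeR adjusted p of 0.00528, 3.27e-05 and 0.000151), and Cyp2a4 did not (0.131).

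On the lower side the first gene was Rn7sk, the 7SK RNA, a nuclear RNA that holds the elongation factor P-TEFb inactive. Rn7sk had 351, 621 and 609 counts in heavy, against 3610, 4350 and 735 in light. The difference was large in chow 1 and chow 2 (log2 -2.84 and -2.80) and small in chow 3 (-0.37), which left a fitted value of -2.05 ± 0.53 (edgeR adjusted p = 0.433). Kcnq1ot1, a nuclear RNA that silences imprinted genes, had 4, 6 and 59 counts in heavy, against 105, 45 and 73 in light, with no overlap in CPM. Its ratios were -3.91, -2.60 and -0.39 (edgeR adjusted p = 0.516). In these genes chow 3 had the ratio nearest to 0, and without it both passed (edgeR adjusted p of 5.4e-09 for Rn7sk and 0.000319 for Kcnq1ot1).

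Pfkfb3, whose product makes fructose 2,6-bisphosphate and so drives glycolysis, had 0, 0 and 52 counts in heavy, against 15, 38 and 133 in light. Slco1a1, an organic anion transporter of the hepatocyte surface, had 71, 43 and 50 counts in heavy, against 144, 101 and 438 in light. Unlike the others its ratio was strongest in chow 3, at -3.15, against -0.49 and -1.20 in chow 1 and chow 2. The last 4 lower genes by the naming rule were the mitochondrially encoded COX3, a cytochrome oxidase subunit, the Y-linked histone demethylase Kdm5d, Slmap, a tail-anchored membrane protein, and Pcnx. Their fitted log2 values ran from -2.18 (Kdm5d) to -1.49 (COX3), with edgeR adjusted p of 0.533 to 0.552. COX3 had only 1 count in the heavy and 3 in the light library of chow 3, and at least 89 counts in each library of the other livers. Without chow 3, Pfkfb3, COX3, Kdm5d and Slmap passed (edgeR adjusted p of 0.0163, 0.00268, 0.00412 and 0.00681), and Slco1a1 and Pcnx did not (0.324 and 0.112). Pfkfb3 then had 0 counts in every heavy library.

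**Figure D2:**
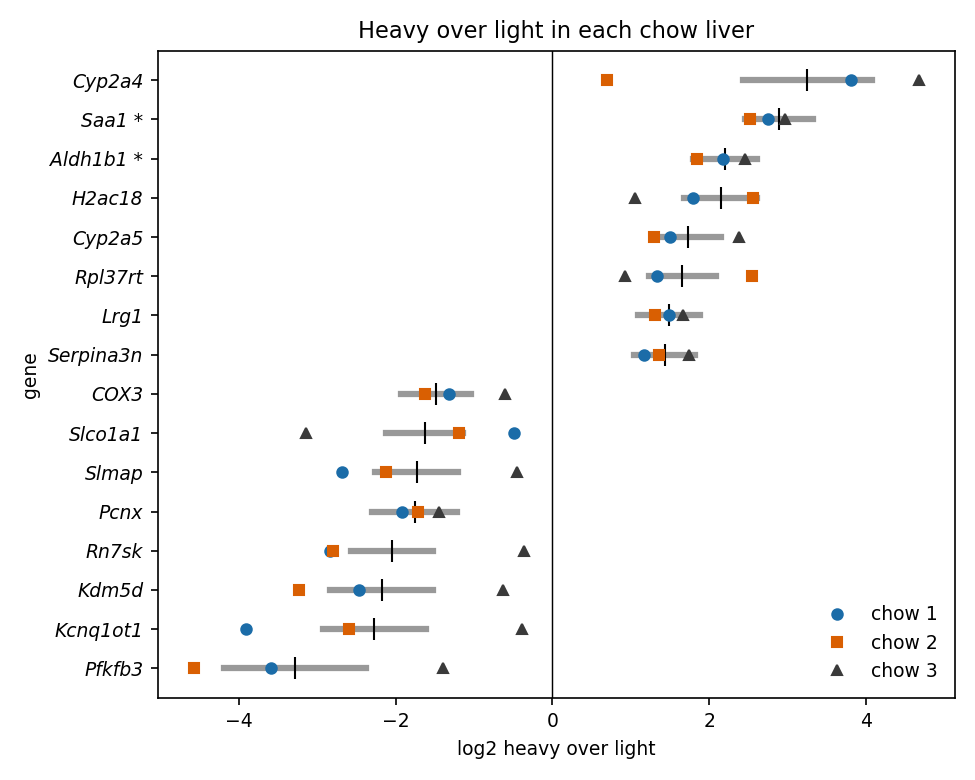
Log2 heavy over light of the 16 genes named by size and p, with 1 symbol per liver, a vertical tick for the fitted value and a grey bar for its standard error on each side. Saa1 and Aldh1b1, marked with an asterisk, passed at an adjusted p under 0.05, and the other 14 did not.

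The ratios of chow 1 and chow 2 resembled each other, and those of chow 3 did not resemble either. Over the 861 genes with a mean of at least 200 counts, Spearman's rho between the log2 ratios was 0.73 for chow 1 with chow 2, -0.06 for chow 1 with chow 3 and -0.10 for chow 2 with chow 3. These are descriptions across genes, which are not independent replicates. The ratios also spread less in chow 3, with an interquartile range of 0.54 against 1.30 in chow 1 and 1.05 in chow 2. At least 2-fold differences were seen for 40.5% of these genes in chow 1, 23.9% in chow 2 and 7.78% in chow 3. In chow 3 the CPM levels of heavy and light were closer in rank too, with a rho of 0.87 against 0.71 and 0.81.

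**Figure D3:**
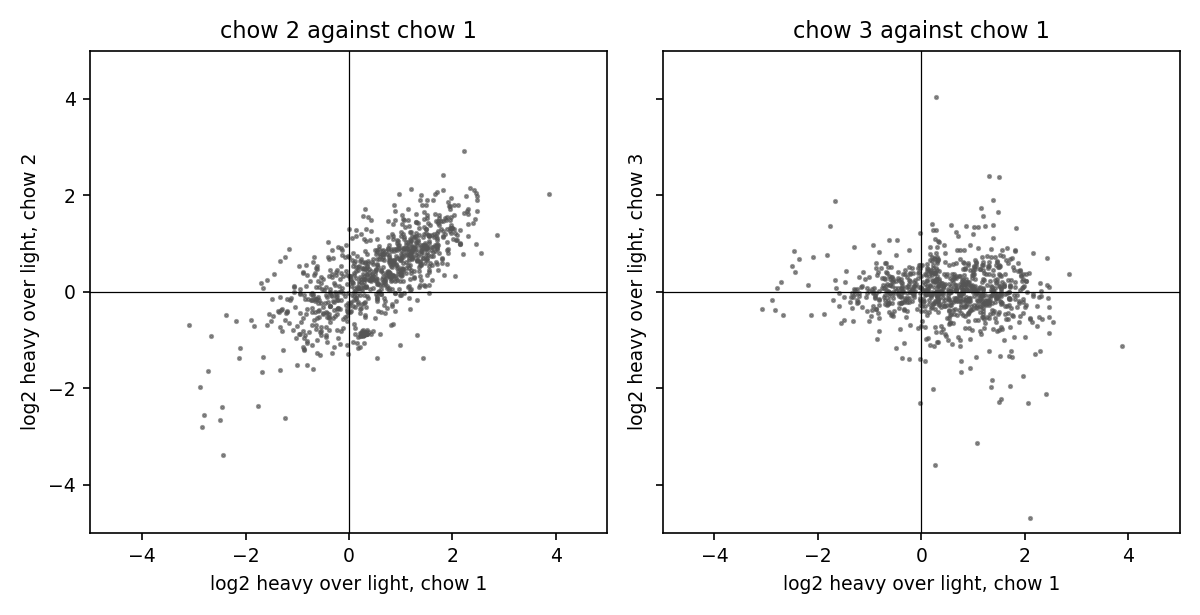
Log2 heavy over light of 861 genes in chow 2 (left) and chow 3 (right), plotted against chow 1, 1 point per gene. The left cloud follows the diagonal (Spearman's rho 0.73), and the right cloud is flat (rho -0.06).

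The ratio was positive in both chow 1 and chow 2 for 2468 genes (29.3%) and negative in both for 2745 (32.6%). Fitted on chow 1 and chow 2 alone, edgeR called 410 of 8432 genes (4.86%), of which 305 were higher (3.62%) and 105 lower (1.25%) in heavy. Saa1, Aldh1b1 and Gm13498 were among them. This fit rests on 2 animals that share an aligner. The 4.86% covers genes of every count level, with a median mean count of 37.2, and calls also depend on counts. The share of calls among genes of like count was not counted. No excess can therefore be read from the shares of the lists below that are set against 4.86%. In chow 3, which this fit did not use, 44.3% of the 305 higher genes had a positive ratio, against 49.0% of all genes tested. Likewise 49.5% of the 105 lower genes had a negative ratio in chow 3, against 50.4% of all genes tested. The median ratio of the 305 was 1.78 and 1.43 in chow 1 and chow 2 and -0.09 in chow 3, and that of the 105 was -2.37, -1.96 and 0.00. The direction in chow 3 was thus near that of all genes for both sets.

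Secreted plasma proteins had mostly positive values in the heavy pool, strongest in chow 1. For comparison, the 861 genes of any kind with a mean of at least 200 counts had median ratios of 0.57, 0.40 and 0.00 in chow 1, 2 and 3. Of all 8432 genes tested, 46.5% had a positive fitted value and 49.0% a positive ratio in chow 3. These shares stand beside the counts of positive genes in every list and class below. The same shares among genes of like count were not counted. In the acute phase list, proteins that the liver makes in inflammation, 19 of 23 genes tested had a positive log2 value, with a median of 0.96, against -0.06 over all genes tested, and 1 passed. The list medians per liver were 1.16, 0.61 and 0.74. The list had 13 genes with a positive ratio in all 3 livers (56.5%, against 13.9% of all genes tested). Haptoglobin (Hp), which binds free hemoglobin, had 6018, 5971 and 9353 counts in heavy, against 3413, 2947 and 4731 in light, with no overlap in CPM and ratios of 1.34, 1.02 and 0.88 (edgeR adjusted p = 0.68). Fgl1, a fibrinogen-like secreted protein, had ratios of 1.83, 1.14 and 1.33, and Orm1, a drug-binding plasma glycoprotein, 1.26, 0.29 and 0.73. These genes and the next ones of this list were named after their values were seen.

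Not every acute phase gene followed. Saa4, the constitutive serum amyloid A, went the other way from Saa1 in chow 1 and chow 2. It had 106, 57 and 190 counts in heavy, against 843, 305 and 97 in light, with ratios of -2.46, -2.38 and 0.85. Hamp, the hormone hepcidin that limits iron export, had 2396, 1291 and 2523 counts in heavy, against 233, 318 and 5138 in light, with ratios of 3.88, 2.02 and -1.12. Saa2, whose sequence is close to that of Saa1, stood at 2.32, -0.75 and 0.74. The metal-binding Mt1 stood at 0.33, -0.48 and -0.72. Without chow 3, 6 genes of the list passed as higher and Saa4 as lower, together 30.4% against 4.86% of all genes.

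Carriers and protease inhibitors of plasma had 29 of 31 positive values and a median of 0.57, with medians per liver of 1.32, 0.71 and -0.07. Albumin (Alb), the main plasma carrier, had 9180, 17927 and 24592 counts in heavy, against 8223, 21810 and 15258 in light, with ratios of 0.68, -0.28 and 0.59. Its sign was thus mixed. Serpina3k had 11113, 15251 and 6787 counts in heavy, against 3985, 6153 and 12158 in light, so chow 3 ran opposite to the other livers. Without chow 3, 8 of the 31 passed, all higher (25.8%, against 4.86% of all genes). Among them were Ttr, the thyroxine and retinol carrier, at 1.57 ± 0.39 and Apoh, which binds phospholipids, at 1.60 ± 0.36 (edgeR adjusted p of 0.00385 and 0.000955). In chow 3 the ratios of Ttr and Apoh were -0.63 and 0.37.

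The apolipoproteins had 13 of 14 positive values and a median of 0.80, with medians per liver of 1.36, 0.92 and -0.08. Apoe, the ligand for lipoprotein remnant uptake, had 59656, 111503 and 98594 counts in heavy, against 15575, 26965 and 100523 in light. Heavy was far above light in chow 1 and chow 2 (2.46 and 2.05) and level with it in chow 3 (-0.13). Apoa1, the main protein of high-density lipoprotein, had 10902, 27147 and 29857 counts in heavy, against 5639, 14513 and 24116 in light, and its CPM ranges did not overlap (1.47, 0.91 and 0.21). Apob, the very long scaffold of low-density lipoprotein, stood at 0.23, -0.34 and -0.04, named after its values were seen. None of the 14 passed over 3 livers, and 6 passed without chow 3, all higher (42.9%, against 4.86% of all genes).

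Coagulation factors had 13 of 17 positive values and a median of 0.36. Their medians per liver were 0.77, 0.48 and -0.06, with 8 of 17 positive in chow 3. The fibrinogen beta chain Fgb had 6735, 4787 and 8000 counts in heavy, against 1799, 1104 and 4625 in light, with no overlap in CPM and ratios of 2.43, 2.12 and 0.69 (1.76 ± 0.51, edgeR adjusted p = 0.516). The alpha chain Fga, which is assembled with Fgb into fibrinogen, had ratios of 1.53, 1.19 and 0.54. Complement genes had 16 of 23 positive values and a median of 0.32. Their medians per liver were 0.72, 0.28 and -0.09, with 10 of 23 positive in chow 3. C3, the central complement component, had ratios of 0.81, 0.61 and 0.61 with no overlap in CPM, and C4b 0.45, 0.37 and 0.61. Genes for translocation into the endoplasmic reticulum and folding there had 27 of 38 positive values and a median of 0.38. Their medians per liver were 0.74, 0.30 and -0.04, with 17 of 38 positive in chow 3. Hsp90b1, a chaperone, stood at 0.35, 0.51 and 0.22. In these 3 lists none passed over 3 livers, and without chow 3 there were 3, 2 and 4 calls, all higher (17.6%, 8.70% and 10.5%, against 4.86% of all genes).

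Major urinary proteins, pheromone carriers that male mouse liver makes in large amounts, split widely between livers. Of 20 genes tested 17 had a positive fitted value (median 0.77), and the list medians per liver were 1.77, 1.12 and -0.72. Mup7 had 2283, 5112 and 139 counts in heavy, against 765, 2421 and 3454 in light, with ratios of 2.10, 1.08 and -4.70. Mup14 had 1796, 4164 and 334 counts in heavy, against 617, 1805 and 1560 in light, with ratios of 2.06, 1.21 and -2.31. Heavy was above light in the first pair of livers and below it in chow 3. None passed over 3 livers, and 15 of 20 passed without chow 3, all higher (75%, against 4.86% of all genes). The share among genes of like count was not counted, so no excess can be read from this. The Mup genes are near-identical copies, so the counts of single members depend on how reads with several matches were treated, which is not given in the sources used here.

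Enzymes of hepatocyte metabolism were mostly positive as well, with smaller medians in chow 3. Genes of any kind with a mean of at least 200 counts had medians of 0.57, 0.40 and 0.00 in chow 1, 2 and 3. Positive medians in chow 1 and chow 2 were thus not particular to these lists. Pericentral genes, which are expressed around the central vein, had 19 of 21 positive values, a median of 0.56 and medians per liver of 1.19, 0.78 and 0.13. Cyp2e1, an ethanol-inducible P450, had 1350, 12457 and 13377 counts in heavy, against 704, 6336 and 7965 in light (1.46, 0.98 and 0.65). Cyp3a11, the main mouse P450 for steroid and drug oxidation, had ratios of 1.31, 0.66 and -1.23. Drug-metabolising P450 genes, a list that shares members with the pericentral one, had 24 of 31 positive values and a median of 0.54. None of these genes passed over 3 livers. Without chow 3, 8 pericentral genes passed as higher, and 7 P450 genes passed as higher and 1 as lower. These are 38.1% and 25.8% of the lists, against 4.86% of all genes.

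The urea cycle, which turns ammonia into urea, had 7 of 8 positive values and a median of 0.79. Cps1, its entry enzyme, had 5175, 15977 and 24657 counts in heavy, against 3008, 7773 and 14963 in light, and Arg1, which releases urea, 1543, 4508 and 7214 in heavy, against 969, 2144 and 4568 in light. For both genes the heavy CPM values lay above all light ones, with ratios of 1.30, 1.04 and 0.62 for Cps1 and 1.19, 1.08 and 0.56 for Arg1. Amino acid catabolism had 36 of 44 positive values and a median of 0.51, with medians per liver of 0.81, 0.52 and 0.08. Bhmt, which returns a methyl group from betaine to homocysteine, had 1024, 7262 and 11530 counts in heavy, against 559, 4060 and 2859 in light, and was highest in chow 3 (1.39, 0.84 and 1.91). Mat1a, which makes S-adenosylmethionine, stood at 0.82, 0.54 and 0.60. None of these genes passed over 3 livers (edgeR adjusted p of 0.607 to 0.797 for the 4 named). Without chow 3 there were 1 and 6 calls in these lists, all higher (12.5% and 13.6%, against 4.86% of all genes).

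Mitochondrial β-oxidation and ketogenesis had 20 of 22 positive values and a median of 0.61, with medians per liver of 1.27, 0.43 and -0.04. Cpt1a, which admits fatty acids to mitochondria, had ratios of 1.30, 1.02 and 0.37. Cholesterol synthesis had 21 of 25 positive values and a median of 0.61. Lipogenesis had 11 of 17 positive values (median 0.14), with the fatty acid synthase Fasn at 1.54, 0.75 and 0.05 and the desaturase Scd1 at 0.94, 0.69 and -0.98. Bile acid synthesis and transport had 10 of 18 (median 0.05), with Cyp8b1, which makes cholic acid, at 1.03, 1.60 and 0.04 and the canalicular pump Abcc2 at -0.37, -0.30 and 0.02. In these 4 lists none passed over 3 livers, and 5, 1, 2 and 3 passed without chow 3, all higher (22.7%, 4%, 11.8% and 16.7%, against 4.86% of all genes).

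Cytosolic ribosomal proteins and several translation factors belong to the TOP mRNAs, whose 5′ ends start with a C and a run of pyrimidines that ties their translation to mTOR. In both groups chow 3 had the highest median of the 3 livers. Ribosomal proteins had 51 of 60 positive values, a median of 0.60 and medians per liver of 0.47, 0.26 and 0.85. In chow 3, 57 of 60 were positive, against 49.0% of all genes tested. Rpsa, a small subunit protein, had 260, 396 and 1211 counts in heavy, against 245, 231 and 761 in light, with ratios of 0.61, 0.78 and 0.57. Rpl19, a large subunit protein, had 64, 185 and 1099 counts in heavy, against 44, 80 and 651 in light, with ratios of 1.04, 1.20 and 0.65. None of the 60 passed over 3 livers, and 2 passed without chow 3, both higher (3.33%, against 4.86% of all genes). Many ribosomal protein genes have processed pseudogenes, and their counts in chow 1 and chow 2 were low, such as 0 and 0 in heavy and 6 and 11 in light for Rps27, which had 122 and 37 counts in chow 3.

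Translation factors of this class had 17 of 19 positive values, a median of 0.51 and medians per liver of 0.71, 0.18 and 0.74, and none passed with or without chow 3. Eef2, the factor that moves the ribosome along the mRNA, had 367, 1261 and 2786 counts in heavy, against 312, 961 and 1435 in light (0.75, 0.40 and 0.86). Eif3a, a scaffold of the initiation factor eIF3, had 536, 1089 and 1432 counts in heavy, against 578, 517 and 1336 in light (0.41, 1.08 and 0.00). Eef1a1, which brings tRNAs to the ribosome, stood at 1.01, 0.33 and 1.35, and Rack1, a protein of the small ribosomal subunit, at 1.20, 2.30 and 1.32 with no overlap in CPM. Eef1a1 and Rack1 were named after their values were seen.

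To show what a pyrimidine run looks like at the most counted of these genes that have one, 30 bases around the longest run of C and T within 30 bases of an annotated RefSeq start are given (build GRCm38.p6, 5′ to 3′ on the gene's strand, run in capitals). Where RefSeq gives several starts, the one with the longest run was used, and at Rpl19 this start lies inside the annotated span of the gene.
Fau (chr19:6057936-6057965, plus strand): cgcccccaCTTCTTCCTCTTTCTTgactcc
Rpl19 (chr11:98026905-98026934, plus strand): ggcttgggCTCTCCCCTTCgcagataatgg
Rps6 (chr4:86857347-86857376, minus strand): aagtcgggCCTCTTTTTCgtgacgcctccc
Rplp2 (chr7:141447638-141447667, plus strand): cgtcagcgTCTTCCTTTCgccgccggacgc
Eef1a1 (chr9:78481708-78481737, minus strand): tggctccgCCCTCTTCCCgagggtggggga
Eef2 (chr10:81176637-81176666, plus strand): gtcagcggTCTCTTCCgccgcagccgccgc
The runs of these 6 genes are 16, 11, 10, 10, 10 and 8 bases long. Fau encodes a ribosomal protein fused to a ubiquitin-like peptide, Rps6 the ribosomal protein that S6 kinase phosphorylates, and Rplp2 a protein of the ribosomal stalk. Their log2 ratios in chow 1, 2 and 3 were 1.43, -1.38 and 0.71 for Fau, 1.99, 0.83 and 1.01 for Rps6, and 0.44, 0.28 and 0.98 for Rplp2. The longest runs at Rpsa and Eif3a were 7 and 6 bases.

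A run of at least 8 C or T on the gene's strand, within 30 bases either side of any annotated start, was found for 27 of 43 ribosomal protein genes with a start in the RefSeq table (62.8%). It was found for 9 of 15 translation factors (60.0%) and for 1668 of 6495 other nuclear protein-coding genes (25.7%). Among ribosomal protein genes the median log2 heavy over light was 0.51 with such a run and 0.62 without it. Among the translation factors it was 0.63 with and 0.34 without. Among the other genes it was -0.12 with and -0.07 without. A run near an annotated start is a match of letters and not a measured transcript end.

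The eIF4E, MNK and ERK pathway, which controls cap-dependent initiation, had 9 of 19 positive values and a median of -0.08, close to the -0.06 of all genes tested, with medians per liver of -0.44, 0.02 and 0.06. Mapk3, which encodes ERK1, the kinase upstream of MNK, had 185, 398 and 401 counts in heavy, against 1850, 2355 and 353 in light, with ratios of -2.79, -2.55 and 0.08 (-1.82 ± 0.53, edgeR adjusted p = 0.516). Mknk1, which encodes the eIF4E kinase MNK1, had 31, 56 and 96 counts in heavy, against 162, 241 and 109 in light, with no overlap in CPM, named after its values were seen. Eif4g1, the scaffold of the cap-binding complex, stood at 0.12, -0.32 and -0.04. Without chow 3, Mapk3 and Mknk1 passed as lower and Eif4ebp1, an eIF4E-binding repressor, as higher (15.8% of the list, against 4.86% of all genes). Genes with upstream open reading frames, such as stress and polyamine regulators, had 6 of 15 positive values (median -0.19, medians per liver of 0.17, -0.15 and -0.08, none called with or without chow 3), with the transcription factors Cebpa at 0.97, 0.70 and -0.39 and Cebpb at 0.95, 0.43 and 0.03.

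Housekeeping complexes differed in size of median. Respiratory chain medians per liver were 0.85, 0.35 and 0.02, against 0.57, 0.40 and 0.00 for all genes with a mean of at least 200 counts. Proteasome subunits had 28 of 31 positive values and a median of 0.48. A positive ratio in all 3 livers was seen for 14 of the 31 (45.2%, against 13.9% of all genes tested). Psmd4, the ubiquitin receptor, had ratios of 1.60, 1.19 and 0.11, and the catalytic subunit Psmb6 1.38, 0.64 and 0.36, both with no overlap in CPM. Nuclear-encoded respiratory chain subunits had 52 of 68 (median 0.45), with the ATP synthase subunits Atp5a1 at 0.84, 0.52 and 0.16 and Atp5b at 0.69, 0.21 and 0.08. Mitochondrial ribosomal proteins had 38 of 62 (median 0.12), with Mrpl38 at 1.01, 0.66 and -0.18 and Mrpl17 at 1.47, 0.17 and -0.12. Aminoacyl-tRNA synthetases had 13 of 21 (median 0.26), with Aars at 0.38, 0.59 and -0.04 and Eprs at 0.84, 0.36 and 0.17. Splicing factors had 24 of 43 (median 0.02), with Srrm2 at -0.94, -0.05 and -0.02 and Son at -0.57, -0.38 and 0.32. None of these genes passed over 3 livers. Without chow 3 the calls were 2, 5, 0 and 1 higher in the first 4 lists and 1 lower among splicing factors. These shares of 6.45%, 7.35%, 0%, 4.76% and 2.33% stand against 4.86% of all genes.

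The lists of short-lived and special mRNAs held no call, with or without chow 3. Selenoproteins, which read a UGA codon as selenocysteine, had 9 of 15 positive values (median 0.10), with Selenop at 0.17, -0.25 and -0.08 and Gpx1 at 1.04, 0.44 and -0.59. Immediate early genes had 7 of 10 (median 0.28), with Jund at 0.73, 0.18 and 0.02 and Jun at 1.07, 0.68 and -0.89. Clock genes had 7 of 16 (median -0.14), with Per2 at 0.93, -0.22 and 0.67 and Tef at 0.49, -0.19 and -0.62.

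Replication-dependent histone mRNAs, which end in a stem-loop in place of a poly(A) tail, had 12 of 15 positive values and a median of 0.89. Their medians per liver were 1.21, 2.24 and -0.27. H4c8 had 148, 260 and 122 counts in heavy, against 75, 31 and 128 in light (1.49, 3.01 and -0.16). H1f4, a linker histone, had 35.7, 47.6 and 12.4 CPM in heavy, against 28.9, 14 and 12 CPM in light (0.30, 1.74 and 0.05). Heavy exceeded light most in chow 2, and none passed over 3 livers. Without chow 3, 6 of 15 passed, all higher (40%, against 4.86% of all genes).

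Nuclear noncoding RNAs had the lowest median, -1.34, and 0 of 9 were positive. The medians per liver were -2.13, -1.48 and -0.17. Rpph1, the RNA of RNase P, had 1597, 1905 and 2370 counts in heavy, against 16877, 7504 and 2485 in light (-2.88, -1.97 and -0.17). Malat1, an abundant RNA of nuclear speckles, had 3676, 12363 and 32851 counts in heavy, against 18752, 20249 and 18152 in light (-1.83, -0.71 and 0.76), so its sign turned in chow 3. None passed over 3 livers, and 5 of 9 passed without chow 3, all lower (Kcnq1ot1, Rn7sk, Rpph1, Rmrp and Neat1). That is 55.6%, against 4.86% of all genes. The 3 noncoding hosts of snoRNAs that were tested had a median of -0.40 and no call. Gas5 stood at -3.0, 0.12 and 0.76 and Snhg20 at -1.14, 0.00 and 0.98, on at most 84 counts in a library.

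By RefSeq class, long noncoding RNAs had 13 of 50 positive values (median -0.59), snoRNAs 2 of 18 (median -0.59) and snRNAs 6 of 12 (median -0.39). The snoRNA medians per liver were -1.08, -0.39 and 0.50, and 14 of 18 snoRNAs were positive in chow 3, so the sign turned there. None of these classes held a call over 3 livers. Without chow 3 there were 6 calls among long noncoding RNAs (12%, 1 higher and 5 lower), 0 among snoRNAs and 4 among snRNAs, all lower (33.3%), against 4.86% of all genes. Genes annotated as pseudogenes had 62 of 73 (median 0.79), with medians per liver of 1.13, 0.43 and 0.00 and 12 calls without chow 3, all higher (16.4%). Mitochondrially encoded mRNAs, which mitochondrial ribosomes translate, had 1 of 12 positive values (median -0.26) and medians per liver of -0.33, -0.76 and 0.08. COX1, a cytochrome oxidase subunit, had 1259, 3786 and 2347 counts in heavy, against 3335, 6694 and 1446 in light, and ND5, a complex I subunit, 490, 1618 and 979 in heavy, against 924, 2231 and 757 in light. Both were lower in heavy in chow 1 and chow 2 and higher in chow 3. None of the 12 passed over 3 livers, and COX3 alone passed without chow 3, as lower (8.33%, against 4.86% of all genes).

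**Figure D4:**
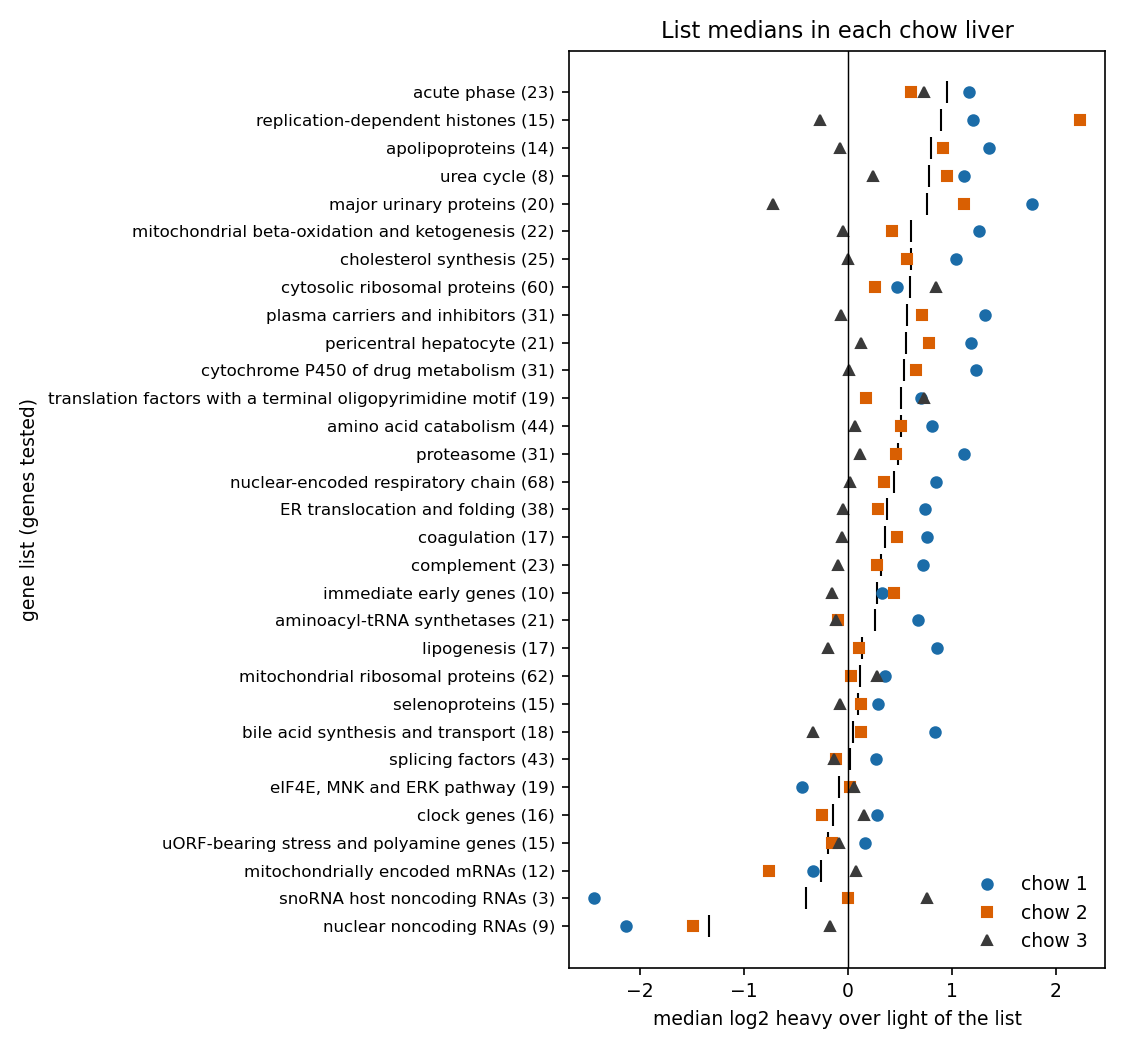
Median log2 heavy over light of 31 gene lists, with 1 symbol per liver and a black tick for the median of the fitted values, ordered by that median. Most lists of hepatocyte products have chow 1 farthest to the right and chow 3 near 0, ribosomal proteins have chow 3 farthest to the right, and nuclear noncoding RNAs have medians of -2.13 and -1.48 in chow 1 and chow 2.

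Heavy over light also followed the genomic span of the gene in chow 1 and chow 2. Nuclear protein-coding genes spanning under 5 kb (795 genes) had a median of 0.40, and those of 100 kb or more (1109 genes) a median of -0.36. Between them the medians were 0.16, 0.07, -0.09 and -0.30 for spans of 5 to 10, 10 to 20, 20 to 50 and 50 to 100 kb. In the shortest class the medians per liver were 0.69, 0.52 and -0.06, and in the longest class -0.66, -0.49 and 0.08. Across 8114 genes Spearman's rho with span was -0.28, -0.26 and 0.04 in chow 1, 2 and 3, given as a description, since genes of one library share its depth. Chow 1 and chow 2, which had this trend, were aligned with Bowtie2, and chow 3, which did not have it, with HISAT2. Animal and aligner therefore cannot be told apart here, and the part of the aligner in the trend was not tested.

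The fitted values kept this order of the short and the long class at each level of expression. When the genes were divided into 3 groups of like size by mean count, in the lowest group the median was -0.03 for genes under 10 kb and -0.58 for genes of 100 kb or more. In the middle group it was 0.22 and -0.45, and in the highest group 0.47 and -0.26. In chow 1 and chow 2 the short class lay above the long class in each group, with medians of 0.05 and -0.82 (chow 1) and 0.09 and -0.72 (chow 2) in the lowest and of 0.88 and -0.54 and of 0.66 and -0.35 in the highest. In chow 3 the short class lay below the long class in each group, with medians from -0.08 to -0.02 for the short and from 0.05 to 0.11 for the long class. Without chow 3, 79 genes under 5 kb passed as higher and 4 as lower, while 7 genes of 100 kb or more passed as higher and 34 as lower. These are 10.4% of the shortest and 3.70% of the longest class, against 4.86% of all genes. Span counts introns, so it is not the length of the mRNA or of its coding sequence, which were not analysed here.

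**Figure D5:**
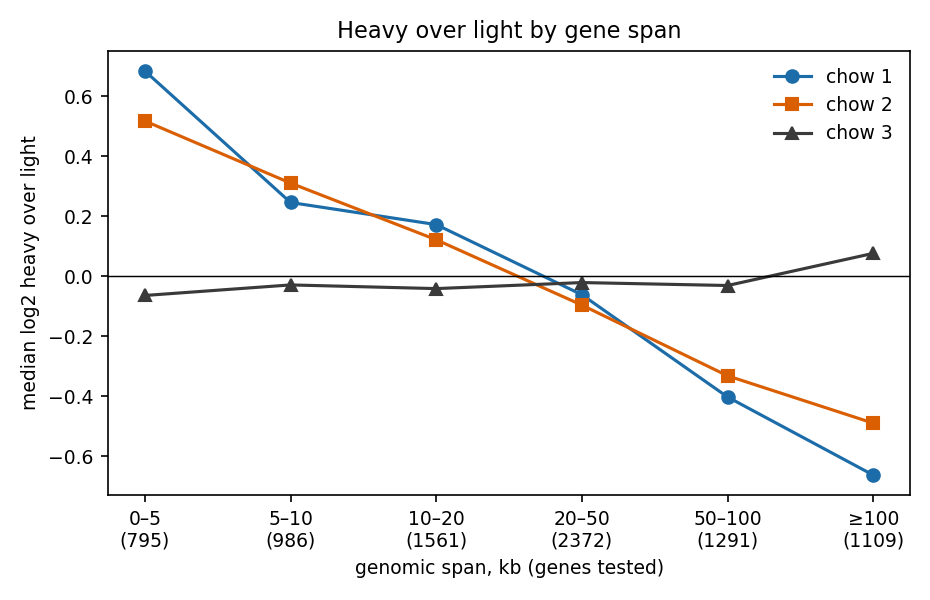
Median log2 heavy over light of nuclear protein-coding genes in 6 classes of genomic span, with 1 line per liver and the number of genes tested under each class. The lines of chow 1 and chow 2 fall across the classes, and that of chow 3 stays between -0.06 and 0.08.

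The tissue label was checked against cell type markers. All 10 hepatocyte markers were tested, and their summed level was 13202, 19111 and 11107 CPM in heavy, against 5984, 11892 and 9298 CPM in light. Sinusoidal endothelial markers (9 of 9 tested) summed to 52.9 to 129 CPM in heavy, against 99.7 to 154 CPM in light, lower in heavy in each liver (log2 of the sums -0.52, -0.92 and -0.09). Kupffer cell markers (5 of 7 tested) summed to 35.2 to 82.4 CPM in heavy, against 30.7 to 64.3 CPM in light, and stellate cell markers (6 of 8) to 51.4 to 70.8 CPM, against 39.9 to 64.3 CPM. Within chow 1, 2 and 3 the log2 of the sums was 0.36, 0.20 and 0.57 for Kupffer cell markers. For stellate cell markers it was 0.83, 0.08 and -0.22. The median fitted values of the markers tested were -0.04 (Kupffer) and 0.35 (stellate). Erythroid markers (4 of 5) summed to 4.23 to 30.2 CPM in heavy, against 8.68 to 20.7 CPM in light, with log2 values of 1.27, -0.62 and -1.03. Cholangiocyte markers (2 of 6) reached at most 17.4 CPM in heavy, against 12.1 CPM in light, with Cftr at 0 in every library. Lymphocyte markers (1 of 6) reached at most 7.46 CPM in heavy, against 6.27 CPM in light, with Cd79b and Ms4a1 at 0. Neutrophil markers S100a8, Ly6g and Mpo were at 0 in every library and none of the 4 was tested. Both pools of an animal come from 1 liver, and the part of the other cell types in the results was not tested.

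The same ratio in the other 3 livers of the series, which share no library with the chow livers, gives a frame for these values. Of the 8 genes named on the higher side, 7 had a positive log2 ratio in the first ketogenic diet liver, 2 in the second and 2 in the S209A liver, against 49.1%, 50.7% and 49.3% of all genes. Of the 8 named on the lower side, 6, 6 and 2 had a negative ratio, against 50.5%, 48.2% and 49.9% of all genes. Saa1 stood at 2.51 and -0.82 in the ketogenic diet livers and at -2.18 in the S209A liver. Over the 861 genes with a mean of at least 200 counts, Spearman's rho of the chow 3 ratios was 0.40 and 0.12 with those of the 2 ketogenic diet livers and 0.21 with those of the S209A liver. For chow 1 and chow 2 the rho with the S209A liver was -0.57 and -0.48, and with the ketogenic diet livers it lay between -0.23 and -0.09. The differences between conditions were not tested here.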

How the data were processed

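RNA in a heavy and a light polysome pool of 3 chow-fed wild-type livers was measured from 10 ng inputs with a stranded total RNA kit, per the labels' protocols. Each library has a table of raw counts by Entrez gene ID, and these counts entered as deposited. The authors used Trimmomatic, HISAT2 and StringTie with mouse build mm10, per the submitters' processing notes. The aligner was Bowtie2 for chow 1 and chow 2 and HISAT2 for chow 3, per the file headers. Bowtie2 does not align a read across an intron and HISAT2 does, so spliced reads may be counted unequally. As for versions, counting tool, strand setting and the handling of reads with several matches, they are not stated in the labels or headers. Without a stated strand setting, overlapping and antisense genes are uncertain.

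RefSeq annotation of GRCm38.p6 named 25275 of 27179 IDs, and 1904 stayed unnamed. Among the unnamed, the most counted ID held 30.2% to 59.1% of the counts of a library and entered the fits under its number. No column was left unused (0). The fits used edgeR 4.0.16 (R 4.3.3) with TMM scaling, whose factors ran from 0.501 to 2.48, the animal as a block, a two-sided quasi-likelihood test and Benjamini-Hochberg adjustment over 8432 genes at 0.05. Standard errors divide the absolute log2 value by the square root of F. Per-animal ratios used CPM with a prior count of 2. DESeq2 1.42.0 and limma-voom (limma 3.58.1) were alternatives, beside other scalings, filters and left-out animals. Nothing says how the livers were collected beyond separate animal numbers. With the animal as a block, the p-values rest on how the heavy over light ratio varied between these animals, on 2 residual degrees of freedom. The variance estimate of a gene also borrows from the other genes, so it is not that gene's own spread alone.

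Heavy and light libraries of an animal pair by the number in their titles and come from the same liver. Their deviations from the pool means correlated at r = 0.356, 0.350 and 0.515 across genes in chow 1, 2 and 3. Both pools of chow 3 went through HISAT2, and all pools of chow 1 and chow 2 through Bowtie2. An offset of chow 3 in both pools could alone make r positive in every animal. This could happen even with the pools of chow 1 and chow 2 exchanged. These values therefore cannot show which pools belong together, and the pairing was not tested. Without the block 0 genes were called.

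The comparison and 31 gene lists were chosen with earlier results of these data known, so a list's direction is not independent support. Named genes were, per direction, those that passed at or above the median mean count with one sign in all 3 animals, filled up to 8 by unadjusted p. To these were added the members of each list that passed, or otherwise the 2 with the highest mean count, and the cell type markers. Predicted genes and pseudogenes were left out, and other genes, including those named because they passed without chow 3, were named after their values were seen. Some genes that the rule names are not reported here.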

Additional observations from a re-analysis of the deposited data

Results flagged for a closer look

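In 13 of 74 named genes the 3 chow livers had one sign of log2 heavy over light and both ketogenic diet livers the opposite sign. The naming rule asked for one sign in all 3 chow livers from the 8 genes named per direction. The count is therefore partly set by that selection. The share of all genes tested with this pattern was not counted, so no excess can be read from it. Among the genes on the higher side the mean of the chow livers exceeded that of the ketogenic diet livers by 2.31 for Rpl37rt (1.60 in chow and -0.70 in ketogenic diet livers), 1.25 for Apoa1, 1.37 for Cyp2e1, 1.36 for Psmd4 and 0.56 for Hsp90b1. The same held for the translation genes Rpl19 (1.32), Eef2 (1.19) and Rpsa (0.91). It also held for the ATP synthase subunits Atp5a1 (0.79) and Atp5b (0.55) and for Jund (0.66). On the lower side the difference was -3.64 for Kcnq1ot1 (-2.30 in chow and 1.34 in ketogenic diet livers) and -0.82 for the splicing factor Srrm2. These differences between diets were not tested, and the ketogenic diet livers number 2.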

How the results depend on the processing

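The count of 3 genes was the same with RLE or upper-quartile factors, with filterByExpr and with all 12 libraries in the fit, which each called Saa1, Aldh1b1 and Gm13498. It was 1 over nuclear protein-coding genes only and 1 with a mean count filter of 50 (Saa1 in both), 8 with no low count filter (6 higher and 2 lower), 60 with DESeq2 and 56 with limma-voom. With no replicate block, that is without pairing the pools of an animal, it was 0, with 235 genes at an unadjusted p under 0.05. Leaving out 1 animal at a time gave 0 to 410 calls, with 2 without chow 1 (Saa1 and the pseudogene Serpina4-ps1), 0 without chow 2 and 410 without chow 3. The cause was not tested. Saa1 kept a log2 value between 2.75 and 2.98 under all of these, and DESeq2 gave no adjusted p for Saa1 or for Aldh1b1.

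Some named genes that had not passed changed sign. Mup7 stood at -0.56 with limma-voom and -0.052 with the mean count filter, Gas5 at 0.35 and Jun at -0.023 with limma-voom, and Snhg20 at 0.013 with RLE factors. Leaving out 1 animal at a time gave ranges of -0.28 to 0.97 for Cyp3a11, -0.14 to 0.81 for Scd1, -1.79 to 1.58 for Mup7, -0.54 to 1.62 for Mup14 and -0.18 to 0.073 for Eif4g1. The ranges were -1.28 to 0.030 for Malat1, -1.32 to 0.49 for Gas5, -0.58 to 0.58 for Snhg20, -0.16 to 0.90 for Jun, -0.40 to 0.065 for Tef, -0.16 to 0.085 for Selenop and -0.069 to 0.73 for Gpx1. The list medians of bile acid genes, the eIF4E pathway, splicing factors, snoRNA hosts and clock genes also changed sign under some settings.

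The planned medians by protein length and N-terminal hydrophobicity were not run, since protein sequences were not used here. Nuclear protein-coding genes held as few as 582798 counts in a library, which limits what can be said of genes with few counts.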
